A study of Mus musculus with 8 samples.

Results

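Formative epiblast genes are genes that are switched on as cells leave naive pluripotency and become competent for lineage choice. The set described here holds 10 of them: the ligands Fgf5 and Fgf8, the transcription factors Otx2, Pou3f1 (Oct6), Zic2, Zic5, Foxd3, Tcf15 and Sall2, and the Wnt effector Lef1. Methylation was read by bisulphite sequencing after capture, in overlapping windows of 250 bp. A window belonged to a gene when the transcription start site nearest to the window's centre was that of the gene. By this rule 86 of the 54235 windows in the deposited tables belonged to the set, and 9 of the 10 genes had at least 1 window. Fgf5 had none.

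The cells were E14Tg2a mouse embryonic stem cells, a line from the inner cell mass. They received either control siRNAs (CTR KD) or siRNAs that target YAP (YAP KD), a co-activator of transcription held back by the Hippo pathway. DNA was taken from undifferentiated cells (T0) and after 4 days of neuroectodermal differentiation as serum-free embryoid bodies (T4), with 2 samples for each of the 4 groups and 8 in all, which the study describes as independent experiments. The knockdown was transient and, by the study's account, had ended by T4, so that YAP KD at T4 names cells with an earlier loss of YAP. The tables compare groups and give no value per sample, no methylation level and no depth. The values below are therefore differences between groups in percentage points, and all p-values compare these libraries. Neither the knockdown nor the identity of the cells can be checked in methylation differences. In bulk DNA, a change in the share of cells that carry methylation and a change within each cell cannot be told apart.

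In the embryo, naive cells of the inner cell mass pass through a formative phase before they are primed for germ layers. FGF signalling through ERK and the factor Otx2 drive this step in culture, with Pou3f1 acting beside Otx2 at enhancers of the epiblast. The de novo methyltransferases rise in the same phase. CpG-rich promoters, which most of these genes have, usually stay unmethylated whether the gene is active or not, while distal and intragenic CpGs are where methylation more often changes.

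The sequences of 5 windows show the settings in which the members were measured. They are given 5′ to 3′ on the plus strand of mm9 (NCBIM37), in lower case with each CpG, the measured dinucleotide, in capitals. The intron of Zic5 at chr14:122862126-122862375 had the largest loss of the set in YAP KD cells. The window upstream of Fgf8 at chr19:45820126-45820375 had the largest loss in CTR KD cells. The intron of Fgf8 at chr19:45816501-45816750 and the window upstream of Otx2 at chr14:49293751-49294000 passed the q threshold in the YAP KD table. The coding exon of Tcf15 at chr2:151969626-151969875, with little difference in any comparison, is shown for contrast.
Zic5 intron: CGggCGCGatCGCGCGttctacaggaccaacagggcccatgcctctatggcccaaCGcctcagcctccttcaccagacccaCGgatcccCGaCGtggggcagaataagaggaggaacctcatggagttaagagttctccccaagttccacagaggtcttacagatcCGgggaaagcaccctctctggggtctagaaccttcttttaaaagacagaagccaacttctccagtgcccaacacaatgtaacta
Fgf8 upstream: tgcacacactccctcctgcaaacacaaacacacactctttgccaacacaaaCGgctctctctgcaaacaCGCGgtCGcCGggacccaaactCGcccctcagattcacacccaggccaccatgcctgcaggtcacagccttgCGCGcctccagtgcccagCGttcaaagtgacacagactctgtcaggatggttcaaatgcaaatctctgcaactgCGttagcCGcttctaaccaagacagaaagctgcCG
Fgf8 intron: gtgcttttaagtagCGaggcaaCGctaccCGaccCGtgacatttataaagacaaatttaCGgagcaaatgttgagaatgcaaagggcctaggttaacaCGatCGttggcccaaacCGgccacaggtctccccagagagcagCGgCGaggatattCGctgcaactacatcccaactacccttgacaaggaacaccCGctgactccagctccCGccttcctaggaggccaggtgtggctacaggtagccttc
Otx2 upstream: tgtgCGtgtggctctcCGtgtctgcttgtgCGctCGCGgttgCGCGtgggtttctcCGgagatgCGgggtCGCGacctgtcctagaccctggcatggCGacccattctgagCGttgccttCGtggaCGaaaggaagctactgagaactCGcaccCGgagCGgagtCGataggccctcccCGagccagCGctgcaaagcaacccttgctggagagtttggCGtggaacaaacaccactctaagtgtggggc
Tcf15 coding exon: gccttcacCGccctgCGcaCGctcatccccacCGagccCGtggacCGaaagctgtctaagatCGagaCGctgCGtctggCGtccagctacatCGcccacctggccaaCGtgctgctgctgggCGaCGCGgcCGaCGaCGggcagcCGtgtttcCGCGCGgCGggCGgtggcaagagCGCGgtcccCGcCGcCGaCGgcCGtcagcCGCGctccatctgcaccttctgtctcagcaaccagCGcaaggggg
The Zic5 window holds 11 CpGs, 6 of them within its first 20 bases, and the Fgf8 windows hold 12 and 13. The Otx2 window holds 22 and the Tcf15 window 34, spread over its whole length.

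The 86 windows lay on 5 chromosomes and formed 37 separate stretches, since neighbouring windows share bases. Lef1 and Otx2 had 17 windows each, Foxd3 16, Zic5 14, Fgf8 and Zic2 7 each, Tcf15 5, Pou3f1 2 and Sall2 1. They held a median of 15 CpGs (10 to 37), beside 16 over all windows, and a median GC content of 58.2%, beside 59.6%. The median distance to the nearest start site was 1165.5 bp, beside 400 bp over all windows, and 39 windows lay within 1 kb, 44 between 1 and 10 kb and 3 farther away. By gene part, 31 windows were intergenic, 24 in introns, 20 in coding exons, 8 in UTRs and 3 in noncoding exons. GGAATG, the core letters bound by the TEAD partners of YAP, stood on either strand in 3 of the 86 windows (3.49%), at Zic5, Lef1 and Foxd3, beside 9.99% of all windows. TAATCC, the letters bound by OTX factors, stood in 1 window, at Tcf15 (1.16%, beside 4.43%).

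Windows with a difference over 10 points and q at or below 0.05 are called differentially methylated regions (DMRs) here. The study counted its DMRs by q at or below 0.05 and added the 10-point minimum in its figure of gains and losses. Member windows that pass by q alone are given further on. No window of the set was a DMR in any of the 4 comparisons. In CTR KD differentiation 0 of 74 listed windows were called, where 3.17% of all windows were, and in YAP KD differentiation 0 of 75, where 3.85% were. Between YAP KD and CTR KD 0 of 76 windows were called at T0, where 0.0867% of all windows were, and 0 of 75 at T4, where 0.32% were. At an unadjusted p under 0.05 in the authors' methylKit tables, 14, 19, 12 and 12 windows passed in the same order, beside 23.1%, 24.4%, 10% and 11.2% of all windows. These shares are low and the member windows are few and overlap, so the count of 0 is not read as a property of the genes. Among all windows 1 to 10 kb from a start site, where 44 of the members lie, 6.97% were DMRs in CTR KD and 7.40% in YAP KD differentiation, and within 1 kb 0.926% and 1.20%.

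For the listed windows, intervals show what size of difference the authors' p-values leave room for. They hold no spread between samples beyond those p-values and say nothing on windows that are not listed. From the authors' difference and p-value each window was given a standard error, and the 95% interval lay within 10 points on either side of 0 in 72 of 74 windows for CTR KD differentiation. The exceptions were the Zic5 intron and the window upstream of Fgf8. For YAP KD differentiation 74 of 75 intervals lay within 10 points, with the Zic5 intron the exception, and between YAP KD and CTR KD all 76 did at T0 and all 75 at T4. The median standard error was 0.579 points in CTR KD and 0.570 points in YAP KD differentiation.

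**Figure D1:**
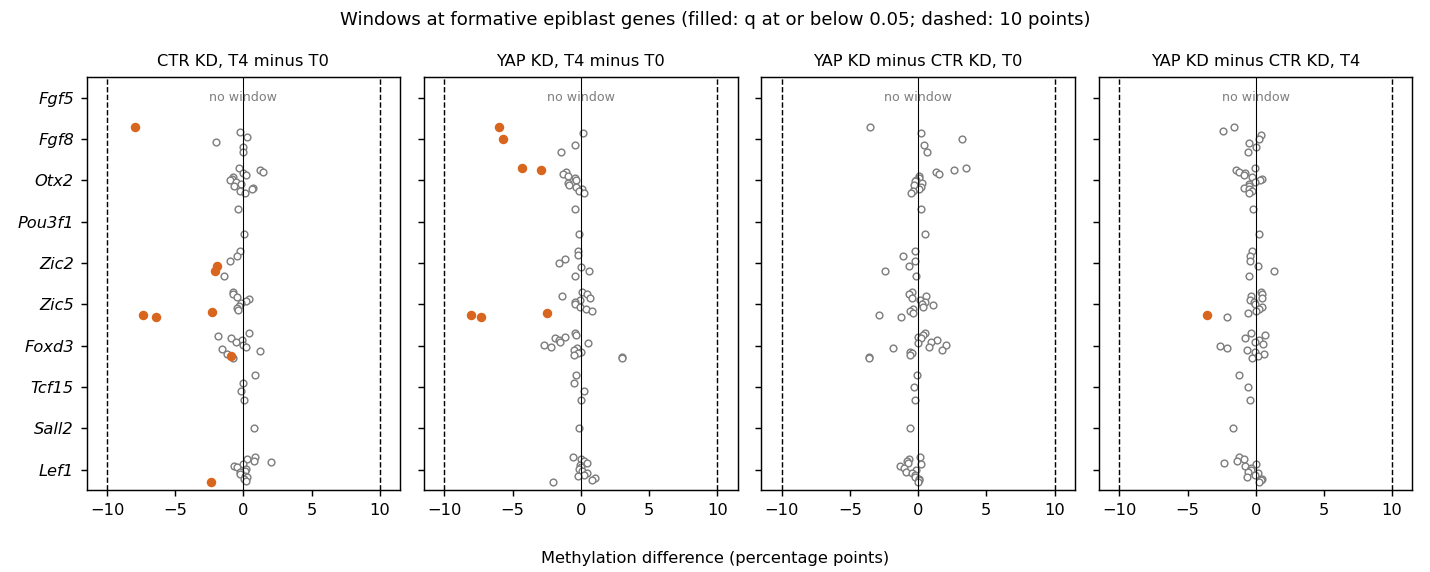
Methylation difference in percentage points (x axis) of every listed window of the 10 genes (rows, the windows of a gene ordered along transcription), with 1 panel for each comparison; filled points have q at or below 0.05 and the dashed lines mark 10 points. No point reaches 10 points, the filled points lie left of 0, and Fgf5 has no window.

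Without the minimum difference, methylation was lower after differentiation in a small number of windows and higher in none. In CTR KD cells 8 of 74 windows were lower at q at or below 0.05, beside 9.57% of all windows, and 0 were higher, beside 4.73%. In YAP KD cells 7 of 75 were lower, beside 12.7%, and 0 were higher, beside 3.42%. These shares of lower windows are near those of all windows. The windows belonged to 6 genes, Zic5, Fgf8, Otx2, Zic2, Lef1 and Foxd3, and 4 of them passed in both tables. The 11 windows that passed in at least 1 table held a median of 12 CpGs and the other 75 a median of 16. Of the 11, 6 were in introns, 3 intergenic and 2 in coding exons, and they formed 7 separate stretches. By table, 5 of 22 listed member windows in introns passed q in CTR KD and 4 of 20 in YAP KD cells. Intergenic windows gave 1 of 24 and 3 of 27, and coding exons 2 of 19 and 0 of 18. Over all windows in CTR KD cells, 1988 of 14417 in introns passed q in either direction, 2030 of 13367 intergenic and 1735 of 9311 in coding exons. In YAP KD cells 2152 of 13292, 2108 of 12413 and 1716 of 8532 did. In UTRs 0 of the 7 listed member windows passed in either table, beside 467 of 7054 and 463 of 6341 of all windows. So few member windows show no pattern by gene part.

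The median difference over the members was -0.227 points in CTR KD differentiation, beside -0.0725 over all windows, and -0.325 points in YAP KD differentiation, beside -0.168. With non-overlapping windows alone the YAP KD median of the members was -0.179 points. In CTR KD cells 48 of 74 differences were below 0, beside 54.0% of all windows, and in YAP KD cells 50 of 75, beside 58.9%. Differences over 5 points were seen in 3 windows in CTR KD cells (4.05%, beside 8.91% of all windows) and in 4 in YAP KD cells (5.33%, beside 10.1%).

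**Figure D2:**
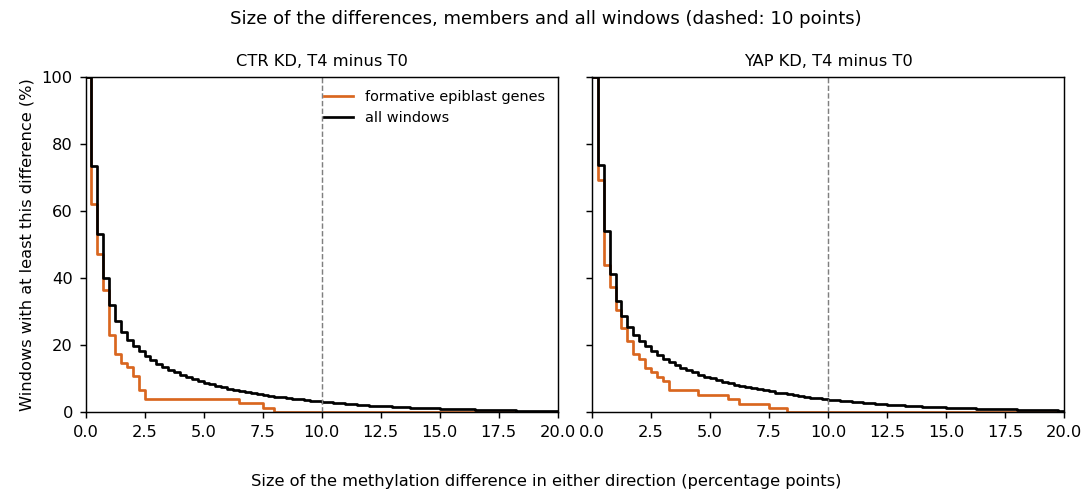
Share of windows in percent (y axis) whose difference in either direction is at least the size on the x axis, in percentage points, for the member windows and for all windows, in CTR KD (left) and YAP KD (right) differentiation; the dashed line marks 10 points. The members' curve ends before 10 points in both panels, while 3.17% and 3.85% of all windows are DMRs.

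The ligands come first by role. Fgf5, the classical marker of the postimplantation epiblast, was not measured here. The window closest to its start site (chromosome 5, gene at 98683203 to 98706049) lay 67452 bp away and was nearer to Prdm8. Fgf8, which patterns the embryo during gastrulation and the early brain, had 7 windows on chromosome 19. At -2846 bp from its start site (45820126 to 45820375) methylation was lower at T4 in CTR KD cells (-7.96 points, 95% interval -10.7 to -5.25, q = 2.73e-07). In YAP KD cells the same window differed by -6.02 points (-8.56 to -3.47, q = 5.4e-05). The YAP KD change minus the CTR KD change was 1.95 points (-1.78 to 5.67), and the z test described further on did not call it.

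In the Fgf8 intron, 548 bp from a start site (45816501 to 45816750), the difference was -5.68 points in YAP KD cells (-8.06 to -3.31, q = 4.12e-05). In CTR KD cells it was -2.03 points (-3.88 to -0.178, q = 0.128). The change differed by -3.65 points between the knockdowns (-6.66 to -0.641), the largest gap of the set, and the z test did not call it. Before differentiation this window was 3.19 points higher in YAP KD than in CTR KD cells (0.594 to 5.79, q = 0.331), and at T4 the difference was -0.462 points (-1.99 to 1.07, q = 0.838). The window nearest to the start site of Fgf8, 346 bp upstream, differed by 0.23 points in CTR KD and 0.15 points in YAP KD cells. The 2 windows in coding exons of Fgf8 differed by -0.04 and -0.04 points in CTR KD cells and by -0.43 and -1.46 points in YAP KD cells.

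Otx2, the homeodomain factor that directs enhancers in the formative state, had 17 windows on chromosome 14. Upstream, at -6557 bp (49293751 to 49294000), the difference in YAP KD cells was -4.29 points (-6.77 to -1.81, q = 0.00559), and the CTR KD table does not list the window. The overlapping window at -6432 bp (49293626 to 49293875) differed by -2.89 points in YAP KD cells (-4.99 to -0.785, q = 0.0377) and by -0.289 points in CTR KD cells (-2.37 to 1.79, q = 0.748). The gap between the knockdowns was -2.60 points (-5.56 to 0.358). At T0 these windows were 3.49 and 2.64 points higher in YAP KD than in CTR KD cells (q = 0.332 and 0.361). At T4 the window at -6432 bp differed by -0.0197 points between YAP KD and CTR KD (-1.83 to 1.79, q = 0.932). The window at -6557 bp is not listed for T4. These upstream windows of Otx2 passed the q threshold in the table of YAP KD differentiation and in no other that lists them.

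In an Otx2 intron, 557 bp from a start site (49286501 to 49286750), the differences had opposite signs. The difference was 1.24 points in CTR KD cells (0.163 to 2.31, q = 0.105) and -1.31 points in YAP KD cells (-2.52 to -0.0896, q = 0.128). The gap of -2.54 points (-4.16 to -0.92) had the smallest p of the set in the z test, and the z test did not call it after adjustment over all windows. The next window, at 682 bp, overlaps it and gave 1.45 points in CTR KD and -0.91 points in YAP KD cells, with a gap of -2.37 points (-4.24 to -0.491). The coding and UTR windows of Otx2 differed by -0.55 and -0.96 points in CTR KD cells and by -0.36 and -0.43 points in YAP KD cells. Nearest to a start site of Otx2, the window at -269 bp differed by -0.70 points in CTR KD and -0.87 points in YAP KD cells.

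Pou3f1, the POU factor that acts beside Otx2, had 2 overlapping windows in its coding exon on chromosome 4, at 855 and 980 bp. They differed by -0.38 and 0.04 points in CTR KD cells and by -0.46 and -0.15 points in YAP KD cells. The intervals of Pou3f1 in the differentiation tables ran from -1.5 to 0.958 points.

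Zic5 and Zic2 encode zinc finger factors of the early neural plate and lie head to head on chromosome 14, 9705 bp apart between their start sites. Zic5 had the longest run of lower windows of the set, in its intron from 2398 to 2773 bp. At 2648 bp (122862126 to 122862375) the difference was -7.34 points in CTR KD cells (-10.8 to -3.84, q = 0.000525) and -8.02 points in YAP KD cells (-10.6 to -5.47, q = 2.35e-08). The overlapping window at 2773 bp (122862001 to 122862250) gave -6.40 points in CTR KD cells (q = 8.11e-06) and -7.29 points in YAP KD cells (q = 7.44e-11). The window at 2398 bp, which touches the run on its promoter side, gave -2.32 points in CTR KD cells (q = 0.00043) and -2.46 points in YAP KD cells (q = 5.97e-05). From 1773 bp towards the start site the differences were within 1 point of 0: over the coding exons and the UTR of Zic5 they ran from -0.46 to 0.43 points in CTR KD cells and from -0.44 to 0.82 points in YAP KD cells. The window nearest to the start site of Zic5, at 23 bp, gave 0.67 points in YAP KD cells (q = 0.121) and is not listed for CTR KD. The lower methylation of Zic5 was thus seen in the measured part of its intron and in both knockdowns, and the gaps between the knockdowns were -0.678, -0.890 and -0.138 points, none called by the z test. Their intervals were -5.01 to 3.65, -4.08 to 2.30 and -1.65 to 1.37 points.

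Zic2 had 7 windows, and the 2 that passed q in CTR KD cells lay towards its 3′ end. At 554 bp from a start site, in a coding exon (122877751 to 122878000), the difference was -1.93 points in CTR KD (q = 0.025) and -1.56 points in YAP KD cells (q = 0.0879). At 679 bp, in the overlapping window of an intron (122877876 to 122878125), it was -2.07 points in CTR KD (q = 0.00322) and 0.016 points in YAP KD cells (q = 0.794). The gap of 2.09 points (0.277 to 3.89) was not called by the z test. All 6 differences of Zic2 in CTR KD cells were below 0, from -2.07 to -0.23 points, and in YAP KD cells 5 of 7 were.

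**Figure D3:**
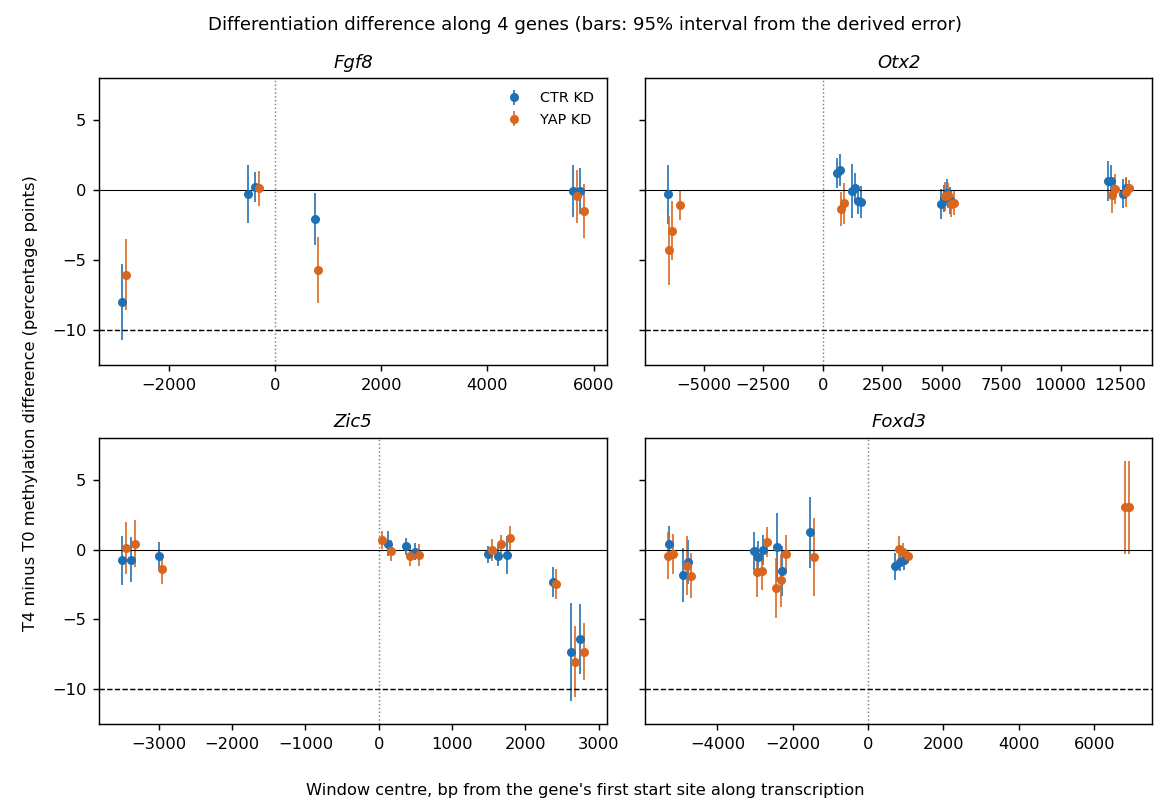
T4 minus T0 methylation difference in percentage points (y axis) against the distance of the window's centre from the first start site of the gene along transcription, in bp (x axis), for Fgf8, Otx2, Zic5 and Foxd3 in CTR KD and YAP KD cells; points are shifted slightly apart, bars are 95% intervals from the derived standard error, the dotted line marks the start site and the dashed line -10 points. The Zic5 intron (-7.34 and -8.02 points) and the window upstream of Fgf8 (-7.96 and -6.02 points) stand below the rest in both knockdowns.

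Foxd3, a forkhead factor needed for epiblast cells and neural crest, had 16 windows on chromosome 4. In its coding exon, at 886 bp (99323751 to 99324000), the difference was -0.879 points in CTR KD (-1.5 to -0.254, q = 0.0361) and -0.203 points in YAP KD cells (q = 0.634). This was the smallest difference of the set that passed q. The window nearest to the start site, at 761 bp, gave -1.21 points in CTR KD (q = 0.0614) and 0.05 points in YAP KD cells. Upstream, in exons of the noncoding gene Gm12688, the differences in YAP KD cells were -2.73, -2.21 and -0.30 points, and none passed q. Downstream, in an intron of Gm12682 at 6761 bp, the YAP KD difference was 3.01 points (q = 0.219), the highest of the set, and the overlapping window at 6886 bp carries the same values.

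Tcf15, a basic helix-loop-helix factor that primes pluripotent cells for differentiation, had 5 windows on chromosome 2, from -0.17 to 0.83 points in CTR KD cells and from -0.47 to 0.23 points in YAP KD cells. Its window at 454 bp, the CpG-dense exon shown above, gave -0.165 points in CTR KD (-0.993 to 0.663) and 0.229 points in YAP KD cells (-0.717 to 1.17). At 171 bp upstream, nearest to the start site, the YAP KD difference was -0.47 points. Sall2, a zinc finger factor expressed in the early nervous system, had 1 window, 534 bp from a start site in an intron on chromosome 14, with 0.81 points in CTR KD and -0.15 points in YAP KD cells.

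Lef1, a DNA-binding partner of beta-catenin, had 17 windows on chromosome 3. Its median difference was 0.10 points in CTR KD and 0.05 points in YAP KD cells. In an intron at 411 bp (130816001 to 130816250) the difference was -2.36 points in CTR KD cells (-3.99 to -0.728, q = 0.0298) and -2.07 points in YAP KD cells (q = 0.0900). At -8013 bp the difference of 2.02 points in CTR KD cells was the highest of the set in that table (q = 0.155), with 0.45 points in YAP KD cells. The windows in the 5′ UTR ran from -0.65 to 0.17 points in CTR KD cells and from -0.13 to 0.03 points in YAP KD cells. Nearest to a start site of Lef1, the intron window at -214 bp gave 0.21 points in CTR KD and 0.83 points in YAP KD cells. Another 3 windows inside the span of Lef1 were nearer to the start site of Hadh and were not counted. Their differences ran from -4.81 to -1.88 points in CTR KD cells and none passed q.

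The YAP knockdown was compared with the control at each time. At T0 no window of the set passed q, with 0 of 76 lower, beside 0.0782% of all windows, and 0 higher, beside 0.311%. The lowest q at T0 was 0.210, for Lef1 at 612 bp (-1.05 points). The differences ran from -3.59 points at Foxd3 to 3.49 points at Otx2, with a median of -0.183 points, beside 0.0506 over all windows. At T4 1 of 75 windows was lower at q at or below 0.05, beside 1.14%, and 0 were higher, beside 0.187%. It was the Zic5 intron at 2648 bp, with -3.55 points (-5.46 to -1.64, q = 0.0271). The overlapping Zic5 window at 2773 bp gave -2.13 points (q = 0.0986). The differences at T4 ran from -3.55 to 1.37 points, the highest at Zic2, with a median of -0.335 points, beside -0.101 over all windows, and 51 of 75 were below 0, beside 56.0% of all windows. In the Zic5 window the difference at T0 was -2.87 points (-6.97 to 1.23, q = 0.658).

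By member, the YAP KD minus CTR KD differences at T0 spread most at Fgf8, Foxd3, Otx2 and Zic5. They ran from -3.57 to 3.19 points at Fgf8, from -3.59 to 2.03 points at Foxd3, from -0.55 to 3.49 points at Otx2 and from -2.87 to 1.07 points at Zic5. At T4 they ran from -2.39 to 0.42 points at Fgf8, from -2.59 to 0.68 points at Foxd3 and from -1.47 to 0.50 points at Otx2. Zic2 ran from -2.42 to -0.19 points at T0 and from -0.50 to 1.37 points at T4. Lef1 ran from -1.37 to 0.24 points at T0 and from -2.32 to 0.49 points at T4, and Tcf15 from -0.28 to -0.05 points at T0 and from -1.21 to -0.45 points at T4. Pou3f1 gave 0.19 and 0.51 points at T0 and -0.17 and 0.22 points at T4. The window of Sall2 gave -0.62 points at T0 and -1.67 points at T4. Apart from the Zic5 intron at T4, none of these differences passed q. The knockdown and differentiation tables share their samples, so a window that is higher in YAP KD at T0 has, by construction, a more negative change in YAP KD cells for a given value at T4.

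Whether the knockdown changed the course of methylation was tested on the 66 windows listed in both differentiation tables. A z test set the YAP KD change against the CTR KD change with the derived standard errors, adjusted over all windows. It rests on the authors' p-values and holds no replicate. It called 0 of the 66, beside 1.29% of all windows, and the adjusted p ran from 0.0988 to 0.999. At an unadjusted p under 0.05 in the z test 5 windows passed, beside 11.3% of all windows. They lay at Otx2 (2 overlapping windows), Fgf8, Zic2 and Tcf15, and the change was more negative in YAP KD cells in 4 of them. All 66 intervals of the gap lay within 10 points of 0 and 59 lay within 5 points. The median gap was -0.112 points, beside -0.154 over all windows. Across the 66 windows the changes of CTR KD and YAP KD cells had a Pearson correlation of 0.789 and a Spearman correlation of 0.314, as a description, since neighbouring windows share bases. Without Zic5 and Fgf8 the Pearson correlation over the remaining 49 windows was 0.230. In 40 of the 66 windows both changes had the same sign.

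**Figure D4:**
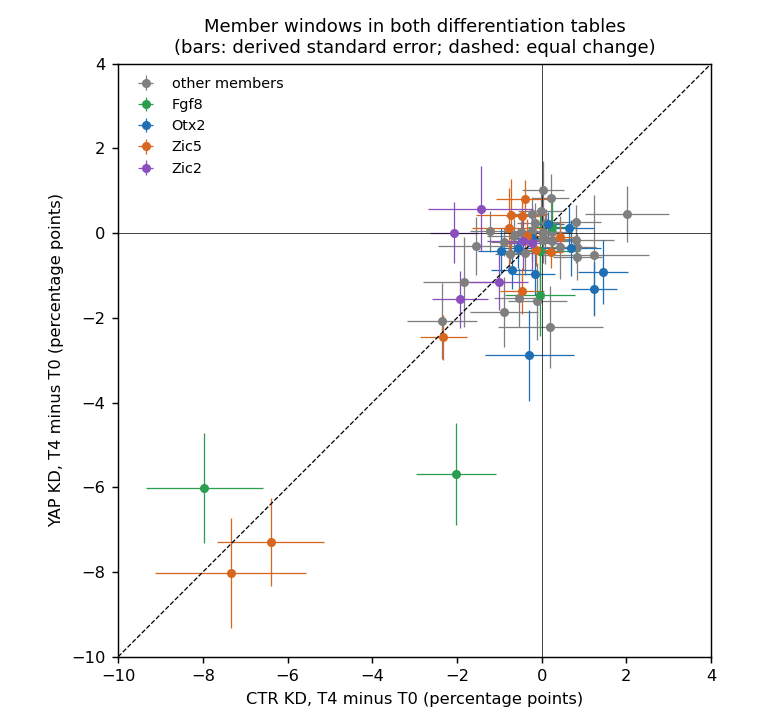
T4 minus T0 methylation difference in YAP KD cells (y axis) against that in CTR KD cells (x axis), both in percentage points, for the 66 member windows in both tables; bars are derived standard errors and the dashed line marks equal change. The Zic5 intron windows lie near the line, the Fgf8 intron (-2.03 and -5.68 points) lies below it, and most windows crowd around 0.

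The wider circle of genes around the set was read from 4 lists that share some genes with each other and none with the members. Over all genes measured, 2.34% had a window called higher and 5.32% a window called lower in CTR KD differentiation, and 1.25% and 7.29% in YAP KD differentiation. The counts of each list stand beside these shares, and genes differ in their number of windows. Of 33 measured genes in an extended formative list, 3 had a window called higher and 2 a window called lower in CTR KD differentiation, and of 27 measured in YAP KD differentiation 0 and 4. Dnmt3a, a de novo methyltransferase, had differences of -18.8 points in CTR KD and -20.5 points in YAP KD cells in an intergenic window 23810 bp from its start site (q = 5.57e-11 and 9.17e-13). The genes with a window called higher in CTR KD cells included Grhl2 (14.7 points) and Nodal (11.7 points). Of 34 genes of the FGF and ERK pathway, 1 had a higher and 3 a lower window in CTR KD cells, and of 32 in YAP KD cells 0 and 4. In an intron window of Spred2, an inhibitor of ERK signalling, 25053 bp from the start site, methylation rose by 14.1 points in CTR KD cells. It differed by 1.19 points in YAP KD cells, a gap that the z test called. Of 19 relatives of the members in their gene families, 3 had a higher and 1 a lower window in CTR KD cells, and of 18 in YAP KD cells 2 and 2. The relative of Zic2 and Zic5 with a DMR was Zic4, at -30.6 points in CTR KD and -23.8 points in YAP KD cells in an intron, where q was 2.21e-24 and 8.45e-15. The relatives with a higher window in CTR KD cells were Tcf7l2 (18.1 points), Sall4 (13.8 points) and Sall3 (10.1 points). Among 22 naive pluripotency genes, 5 had a higher and 2 a lower window in CTR KD cells and 4 and 2 in YAP KD cells. Of the 231 windows of the extended formative list the z test called 2, and of the 208 of the FGF and ERK list 1. Of the 189 of the relatives it called 1 and of the 163 of the naive list 3. Not all of these windows could be tested, and over all tested windows 1.29% were called. The medians of these lists lay between -0.251 and 0.162 points in CTR KD and between -0.375 and 0.0685 points in YAP KD differentiation.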

How the data were processed

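DNA methylation was measured by targeted bisulphite sequencing (SureSelectXT Methyl-Seq) in 8 samples. The authors trimmed reads with Trim Galore, aligned them to mm9 with Bismark and Bowtie2, excluded positions with little coverage and compared groups with methylKit in windows of 250 bp. They deposited, for each of 4 comparisons, a p-value, a q-value and a methylation difference per window. These are the authors' own comparisons, used here because the tables hold nothing else. Depth is unknown, which leaves the derived error as the measure of precision.

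Differences are T4 minus T0, or YAP KD minus CTR KD. Of the 65 member windows in all 4 tables, 61 closed within 0.5 points under this reading. Closing means that the knockdown difference at T4 minus that at T0 matched the YAP KD change minus the CTR KD change. It would hold as well with every sign reversed, so it does not show the direction. The direction was taken from the study's labels of the comparisons. A standard error was the size of the difference over the normal quantile that its p-value gives. It covers only what that p-value covers. The z test used these errors with Benjamini-Hochberg adjustment and was tested on simulated data. Those data were drawn with the same errors and without replicates or overlap of windows. They cannot show whether the errors are large enough. Start sites and gene parts came from GENCODE M1, and 31-mer copy numbers from the genome. Of the 86 windows 85 were single-copy. Python 3.11.15, pandas 2.3.3, scipy 1.17.1 and pysam 0.24.0 were used.

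The members and lists were chosen with earlier results of these data known. Text names all members, per member and comparison the extreme windows, the window nearest the start site and called windows, and up to 4 genes per list with a DMR; windows past q alone, and the exons and windows set beside them, were added after their values were seen. Alternatives were a q of 0.01, no minimum difference, 20 points, non-overlapping windows, merged regions, 10 kb, windows in both tables, single-copy windows, recomputed q and doubled errors.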

Additional observations from a re-analysis of the deposited data

How the results depend on the processing

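The counts of DMRs among the member windows were also 0 under a q of 0.01, a minimum of 20 points, non-overlapping windows and merged regions. They were 0 within 10 kb of a start site, in windows of both tables, in single-copy windows and with q recomputed by Benjamini-Hochberg adjustment. This was so in each comparison and direction. No member difference reached 10 points, so alternatives that keep that minimum could not have given another count and do not test the result. With no minimum difference the lower counts became 8 in CTR KD differentiation, 7 in YAP KD differentiation and 1 between YAP KD and CTR KD at T4. With recomputed q and no minimum difference, an alternative chosen after seeing the data, they were again 8, 7 and 1. The z test called 0 member windows with doubled errors, with non-overlapping windows and within 10 kb. Doubled errors can only raise its p-values, so that count was fixed beforehand. The other alternatives take a part of the member windows, of which the main test had already called 0. The median difference in YAP KD differentiation went from -0.325 to -0.179 points with non-overlapping windows, and the other medians stayed within 1.5 times their value under that alternative and within 10 kb. With errors doubled, also chosen after seeing the data, 71 intervals lay within 10 points in CTR KD and 71 in YAP KD differentiation, 72 at T0 and 75 at T4.

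No paired analysis was possible because the tables hold no values per sample. For the same reason no replicate was left out. Coverage per window is unknown, windows overlap, and 3 of the 9 measured genes had 5 or fewer windows, so little of those loci was measured.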
